A study of Glycine max with 3 samples.

Results

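The miR169 family of leaf small RNAs, with the transcripts listed as its targets, was examined in young leaves of Taiwan 75, a cultivar of soybean (Glycine max) grown for its green seed as a vegetable. The members were all sequences of the profile tables named as miR169 by the authors, both hairpin arms included, taken once per distinct sequence, together with all degradome pairs of that family. This gave 19 of 381 distinct sequences, from 25 of 587 entries and 16 hairpins, and 78 of 898 pairs of a miRNA and a transcript. Control plants grew at 25 °C (days) and 17 °C (nights), and chilled plants spent 24 h at 4 °C from the stage of 1 true leaf, both at a photon flux density of 600 µmol per m2 and s with 12 h of light. Leaves of 3 replicates were pooled in each, so each condition has 1 library and no replicate check, and no test between conditions can be made. The degradome library mixed chilled and control leaves and carries no difference between them. Its label names leaf tissue, yet gives 10 days after pollination as the stage, unlike the other libraries.

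miR169 is a plant miRNA family found across flowering plants. Its mature strand, cut from one arm of a hairpin precursor, guides cleavage or repression of transcripts for subunit A of nuclear factor Y (NF-YA), which together with subunits B and C binds CCAAT boxes in promoters. In Arabidopsis, NF-YA genes under miR169 are known for roles in drought, nitrogen and flowering responses. Plant miRNAs pair with targets over nearly their whole length, so differences between family members can alter pairing, though not equally at each position. A degradome library sequences the 5′ ends of uncapped transcript fragments, among which ends left by miRNA-guided cleavage can be sought.

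Sequences are given here for the 5′ arm members other than MIR169j-p5, and for miR169l-3p and MIR169a-p3. MIR169j-p5, with 31.3 control and 47.8 chilled reads, has AAGAATG at bases 2 to 8. The letters are those of DNA, as the tables give them, with bases 2 to 8 in capitals.
miR169n: cAGCCAAGggtgatttgccgg
miR169t: tAGCCAAGgatggacttgccta
miR169a: cAGCCAAGgatgacttgccgg
miR169b: cAGCCAAGgatgacttgccga
miR169k: cAGCCAAGaatgacttgccgg
miR169u: cAGCCAAGgatgacttgccgt
miR169c: aAGCCAAGgatgacttgccga
miR169e, listed at 1 hairpin: aAGCCAAGgatgacttgccgg
miR169e, listed at 4 hairpins: tGAGCCAAggatgacttgccg
miR169l-3p: cGGGCAAGttgtttttggctac
MIR169a-p3: gGCAAGTTgtgtttggctat

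The first 8 of these share the bases AGCCAAG at positions 2 to 8, and 0 sequences of other families in the tables did. Against miR169a, with positions counted from 1 at the 5′ end, miR169n carried A10G and C14T, both in its middle part. miR169b differed by G21A and miR169u by G21T, both at the last base, and miR169k by G9A. The miR169e sequence listed at 1 hairpin differed by C1A alone, and miR169c by C1A and G21A. The other miR169e sequence starts 1 base earlier than miR169a and carries C1G. Of the 10 sequences of the 5′ arm, 6 start with C, 2 with T (uridine in the RNA) and 2 with A. Over all 19 sequences, 13 were 21 nt long, 4 were 22 nt, 1 was 20 nt and 1 was 19 nt. The authors gave names with p3 or p5 at the end to opposite-arm sequences. In 3 opposite-arm sequences (MIR169k-p3, MIR169h-p3 and MIR169c-p3) the listed sequence does not occur exactly in the hairpin sequence given for it.

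Some members are near-identical, which limits their values. The raw reads per entry hold fractions in 16 of the 25 entries, so reads were shared out over sequences or loci. The 2 miR169e sequences differed by 0.833 reads in the control and by 2 reads in the chilled library, while each held about 20 chilled reads. Their values and those of miR169c may rest in large part on the same reads. One sequence, the miR169e listed at 4 hairpins, also appears under the names miR169d and miR169p. It holds 3.90 control and 21.9 chilled reads at the entries with most reads, 0.905 and 18.7 reads as miR169d, and 0 and 12.8 reads as miR169p.

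The 16 hairpins lie on 7 chromosomes, and 7 of them in a pair of clusters on the plus strand. The sources used here do not give the build of these coordinates. On chromosome 9, hairpins listed for miR169k, miR169e and miR169c lie within 31210 bp, from 5312855 to 5344064. On chromosome 15, hairpins listed for miR169n, miR169d, miR169p and miR169e lie within 44091 bp, from 14166062 to 14210152. Hairpin length ranged from 85 to 302 nt with a median of 120, against a median of 119 over all 348 hairpins of the tables. The median GC content was 42.2% against 41.4% over all hairpins, and the median folding energy index was 1 in both sets.

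A small RNA that the authors listed as new, miRN1, sits in the same clusters. Its sequence is shown with the bases that it shares with the start of miR169n in capitals.
miRN1: aagtggagtgCAGCCAAGGGT
The last 11 of its bases are the first 11 of miR169n, and it starts 10 bases upstream. Its hairpin on the plus strand at chr15:14166038-14166198 holds the whole miR169n hairpin with 24 further bases before and 22 after. It is shown with the miR169n sequence in capitals, which places miRN1 across the 5′ edge of miR169n.
miRN1-2 hairpin: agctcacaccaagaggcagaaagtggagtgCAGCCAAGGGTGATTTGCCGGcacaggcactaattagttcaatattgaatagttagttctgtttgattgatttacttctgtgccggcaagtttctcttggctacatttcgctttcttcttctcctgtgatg
The other miRN1 hairpin, from 5288876 to 5289047 on chromosome 9, lies 23808 bp from the nearest miR169 hairpin and does not hold the miR169n sequence. Each miRN1 entry holds 13.5 control and 29.5 chilled reads. The log2 ratio of miRN1 was 0.84 (95% interval -0.11 to 1.88), beside 0.53 for miR169n.

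**Figure D1:**
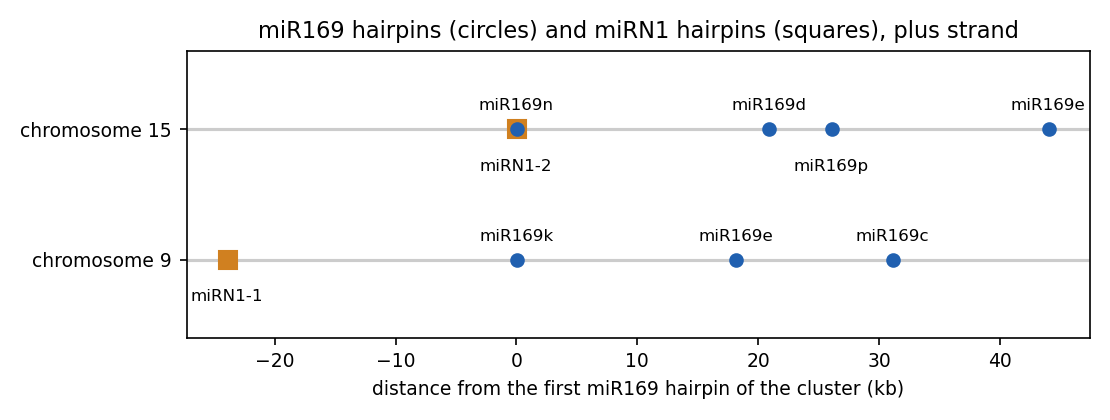
Distance in kb from the first miR169 hairpin of each cluster, on chromosome 9 and chromosome 15; circles are miR169 hairpins named by their 5′ arm entry and squares are miRN1 hairpins. On chromosome 15 the miRN1 hairpin overlies that of miR169n, and on chromosome 9 it lies 23808 bp from the nearest miR169 hairpin.

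The family was a small part of the leaf profile. Over all distinct sequences the control table summed to 3856902 reads and the chilled table to 5347700 reads, of which miR169 took 0.0204% (95% Wilson interval 0.0190 to 0.0218) and 0.0240% (0.0227 to 0.0253). Intervals here and below cover counting error only, since each condition has 1 library. They take each read as a separate count, although reads were not counted by molecular identifiers. Reads were scaled with the TMM method, which takes 0.25 off every log2 ratio of raw reads, chilled to control. The ratios are those of normalised reads with a pseudocount of 1, while their intervals use the reads without one.

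miR169n led the family in both libraries, with 425 control and 729 chilled reads. It held 54.1% of the family's control reads (95% Wilson interval 50.6 to 57.6) and 56.8% of its chilled reads (54.1 to 59.5). miR169t followed with 163 and 162 reads, or 20.8% (18.1 to 23.7) and 12.6% (10.9 to 14.6) of the family. miR169a came next, with 57.2 control and 104.8 chilled reads. With the entry with most reads kept per sequence, each of these steps was larger than the counting error of the shares in both libraries. The order of miR169t and miR169a rests on that choice. The 3 entries of miR169a sum to 171.7 control and 314.5 chilled reads, above the 163 and 162 reads of miR169t. How reads were shared out over entries is not known here, so the order of this pair was not settled. Below miR169n, miR169t and miR169a, the shares of MIR169j-p5 (31.3 and 47.8 reads) and miR169b (25 and 31.9 reads) had overlapping intervals. So did those of the sequences that follow them. The 8 sequences with AGCCAAG at bases 2 to 8 together took 89.8% of the family's control reads (87.5 to 91.7) and 86.7% of its chilled reads (84.7 to 88.4). The 10 sequences of the 5′ arm took 94.3% (92.4 to 95.7) and 92.1% (90.5 to 93.5).

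**Figure D2:**
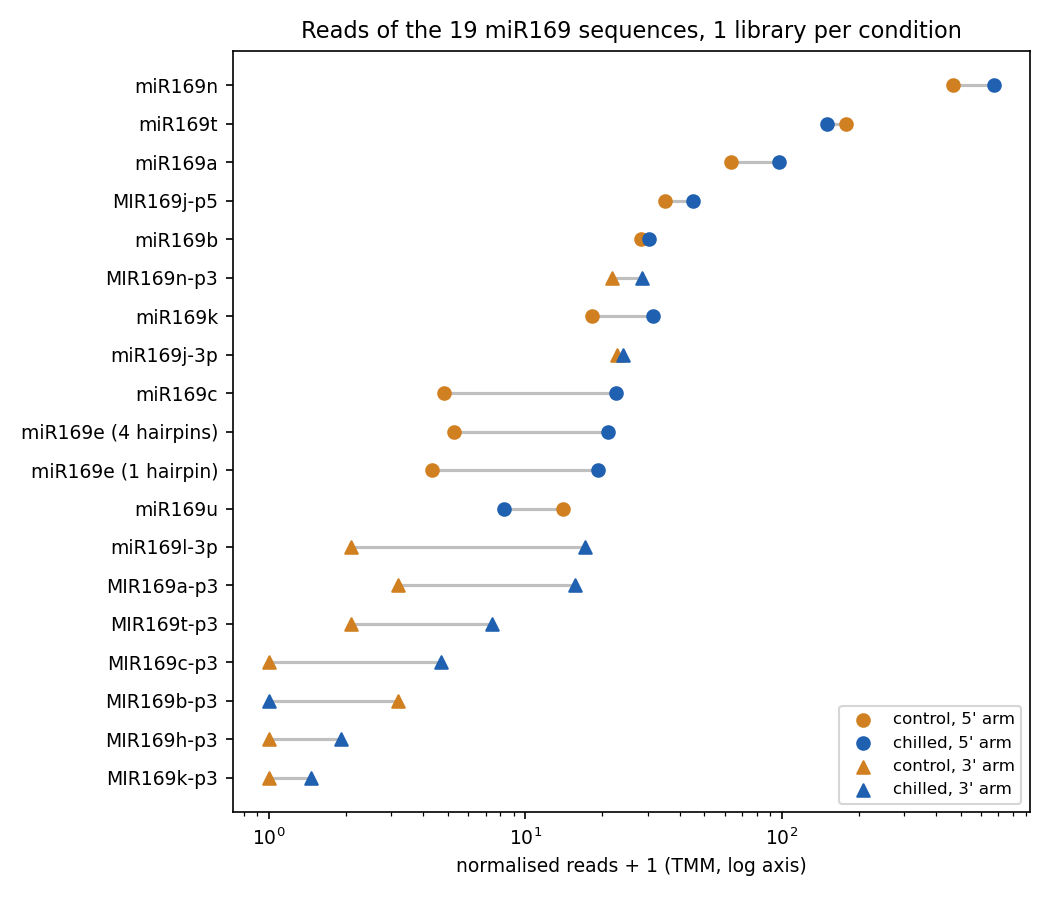
Normalised reads plus 1, on a log axis, of the 19 miR169 sequences in the control and the chilled library; a line joins both values of a sequence, circles are 5′ arm and triangles 3′ arm sequences. miR169n, miR169t and miR169a stand above the rest, and the widest gaps between conditions are at sequences with under 30 normalised reads.

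Summed over its 19 sequences, miR169 had 784.9 control and 1283 chilled reads. After scaling the chilled sum was 1.38-fold the control sum, a log2 ratio of 0.46 (95% interval 0.33 to 0.59), which lay between 0.24 and 0.71 over the 6 scalings run. The sum thus did not reach the 2-fold rule used below. Without miR169n, an alternative added after seeing the data, the other 18 sequences gave 0.38 (0.18 to 0.57). The 5′ arm alone gave 0.43 (0.30 to 0.56), on 739.9 control and 1182 chilled reads. The 3′ arm, the opposite arm of most of these hairpins, gave 0.91 (0.40 to 1.46), on 45 and 101 reads.

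The single members did not move alike. The rule asks for a change of 2-fold or more in either direction, and for 10 or more normalised reads in one of the libraries, a minimum that 14 of the 19 sequences reached. Of these, 5 were higher, 0 lower and 9 neither, where 30.5% of all 213 sequences above the minimum met the rule, 14.1% as higher and 16.4% as lower. The median log2 ratio over the 14 was 0.57, against 0.06 over all 213 sequences. Of the 14, 12 lay above 0, as did 109 of all 213. Among the 12, miR169b and miR169j-3p fell below 0 under other scalings, and miR169c and both miR169e may share reads. All 5 higher members had under 30 normalised reads in both libraries, as did 9 of the 14 members above the minimum. Among the 63 sequences of the tables that reached the minimum but stayed below 30 normalised reads in both libraries, 27% were called higher. The part of low read numbers in these calls was not tested.

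The abundant members are the best measured. miR169n had a log2 ratio of 0.53 (0.36 to 0.71), on 425 control and 729 chilled reads. miR169a stood at 0.62 (0.16 to 1.13). Both lay above 0 under each of the 6 scalings and below 2-fold. miR169t, with nearly equal raw reads, stood at -0.25 (-0.58 to 0.07), and its interval excluded both the ratio of miR169n and a 2-fold change. It lay below 0 under each scaling, from -0.48 to -0.01.

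Among the other tested members that did not meet the rule under TMM scaling, the intervals included 0. miR169k had 15.8 reads in the control and 33.3 after chilling. Its log2 ratio was 0.79 (-0.10 to 1.76), and it met the 2-fold rule with unscaled reads, at 1.03. MIR169j-p5 stood at 0.35 (-0.30 to 1.09) and its partner miR169j-3p, with 20 and 25 reads, at 0.07 (-0.83 to 1.00). MIR169n-p3, with 19 and 30 reads, stood at 0.40 (-0.46 to 1.32). miR169b stood at 0.10 (-0.69 to 0.93). The ratios of miR169b and miR169j-3p changed sign between scalings. The lowest of the tested members was miR169u, with 12 control and 7.89 chilled reads and a ratio of -0.77 (-2.33 to 0.58). Its sequence differs from that of miR169a by the last base alone.

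The higher members of the 5′ arm were miR169c and both miR169e sequences. miR169c had 3.5 reads in the control and 23.6 after chilling, and its log2 ratio was 2.24 (0.80 to 4.33). The miR169e sequence listed at 1 hairpin had 3.07 and 19.9 reads and a ratio of 2.15 (0.74 to 4.88). The one listed at 4 hairpins had 3.90 and 21.9 reads and a ratio of 2.01 (0.66 to 4.21). Since they can share reads, they are no independent observations. Counted as 1 sequence, their pooled reads were 10.5 and 65.3, with a log2 ratio of 2.30 (1.48 to 3.58), an interval that is too narrow if reads are counted more than once. The family then had 3 higher sequences of 12 tested, where 14.1% of all 213 sequences, counted singly, were called higher.

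**Figure D3:**
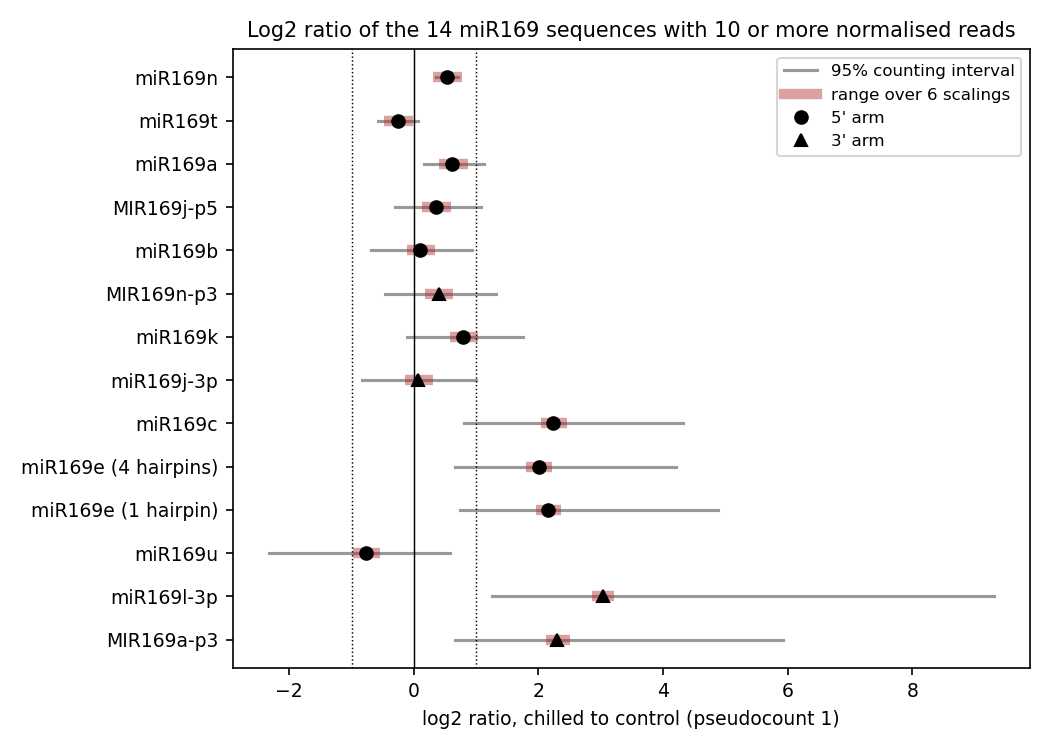
Log2 ratio of chilled to control normalised reads for the 14 miR169 sequences above the minimum, ordered by mean reads from the top; grey lines are 95% counting intervals, red bars the range over 6 scalings, and dotted lines mark 2-fold. The 5 sequences beyond 2-fold are miR169c, both miR169e, miR169l-3p and MIR169a-p3, while miR169n stands at 0.53 with a narrow interval.

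The 3′ arm supplied the other higher sequences. miR169l-3p had 1 read in the control and 17.5 after chilling. Its log2 ratio was 3.03 (1.26 to 9.30). Of the 14 members above the minimum, it was the 1 whose interval lay wholly above 2-fold, beside 10 of all 213 sequences. It comes from the hairpin at chr14:5435482-5435595 on the plus strand, shown with both listed sequences in capitals, the miR169k sequence on the left and miR169l-3p on the right.
miR169l hairpin: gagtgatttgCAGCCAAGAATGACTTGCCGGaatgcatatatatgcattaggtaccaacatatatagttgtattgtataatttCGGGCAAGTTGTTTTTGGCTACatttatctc
The 3′ arm took 5.94% of this hairpin's listed reads in the control (95% Wilson interval 1.05 to 27.0) and 34.4% in the chilled library (23.6 to 49.0). Its 5′ arm sequence is also listed at the chromosome 9 hairpin, so that its reads may come from either. At that chromosome 9 hairpin, the 3′ arm sequence MIR169k-p3 had 0 and 0.5 reads.

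MIR169a-p3 had 2 reads in the control and 16 after chilling, and its log2 ratio was 2.30 (0.67 to 5.92). At its plus-strand hairpin, chr9:38336305-38336425, the 3′ arm took 3.38% of the listed reads in the control (0.935 to 11.5) and 13.2% in the chilled library (8.31 to 20.4). The 5′ arm of miR169a is listed at 3 hairpins, and its reads could come from each of them. At the miR169t hairpin the 3′ arm took 0.610% of the control reads (0.108 to 3.37) and 4.14% of the chilled reads (2.02 to 8.30). At the miR169c hairpin it took 0% (0 to 49.0) and 14.5% (5.70 to 31.5), and at the miR169b hairpin 7.41% (2.06 to 23.4) and 0% (0 to 10.7). The 3′ arm share of the chromosome 9 hairpin listed for miR169e was 0% (0 to 49.0) in the control and 4.37% (0.772 to 20.99) after chilling. The 3′ arm sequences listed at the miR169c hairpin and at this miR169e hairpin do not occur exactly in the hairpin sequences given. The 5′ arm sequence of this miR169e hairpin is also listed at other hairpins. At the miR169n hairpin the 3′ arm took 4.28% (2.76 to 6.59) and 3.95% (2.78 to 5.59), and at the miR169j hairpin on chromosome 2 it took 39.0% (27.0 to 52.9) and 34.3% (24.4 to 45.7). At each of the 9 hairpins with both arms listed, those of miR169l-3p and MIR169a-p3 included, the intervals of the control and the chilled share overlapped.

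Below the minimum were 5 sequences, all of the 3′ arm. MIR169t-p3 had 1 read in the control and 7 after chilling, and its log2 ratio was 1.83 (-0.40 to 8.06). MIR169c-p3 had 0 and 4 reads, MIR169b-p3 2 and 0, MIR169h-p3 0 and 1 and MIR169k-p3 0 and 0.5. Since 3 reads are the limit behind a 0, no difference was detectable at this depth for the last 3 of these. For MIR169c-p3 the counting interval of the log2 ratio reached down to -0.85.

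**Figure D4:**
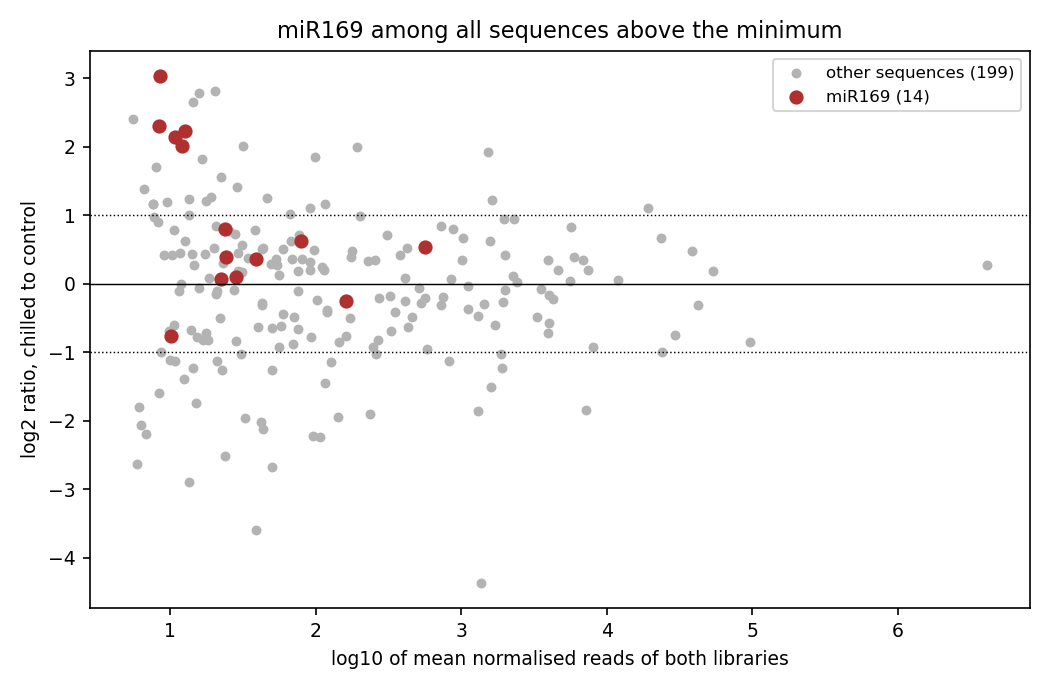
Log2 ratio of chilled to control normalised reads against the log10 of the mean normalised reads for the 213 sequences above the minimum, with the 14 miR169 sequences in red. The 5 members beyond 2-fold lie at the low end of abundance, where other sequences also spread widely on both sides of 0.

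Families whose summed ratio lay nearest to that of miR169 were sought among the 52 other families that reached 100 normalised reads. With 1 library per condition such likeness rests on a ratio of 2 values and is a description. The nearest were miR1509 at 0.46 (0.44 to 0.48), miR2118 at 0.44 (0.39 to 0.49) and miR5033 at 0.42 (0.24 to 0.61). miR169 stood at rank 13 of these 53 families from the highest ratio and at rank 29 by reads.

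The degradome was used by the authors to list targets. In the authors' deposited table, 54 of the 78 miR169 pairs had a transcript annotated as NF-YA, and all NF-YA pairs of the table belonged to miR169. No pair of any family was annotated as subunit B or C. The 54 pairs come from 18 transcripts of 5 gene loci, since miR169a, miR169b and miR169c are each listed with all 18 at the same cleavage site and abundance. They are thus 18 sites rather than 54 observations, and isoforms of a locus can share the same reads. The names of subunits are those of the deposited annotation. Only 4 of the 19 members appear in the degradome table, and miR169n, miR169t and both miR169e are not among them.

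The abundances at these sites were mostly at the lower end of the table. In the authors' deposited table the abundance unit is TPB, a normalised number of reads at the cleavage site that is not spelled out there. The strongest site was in NF-YA1 (Glyma.08G335900.1), at position 1358 of the transcript, with 488 TPB. This is 60 times the lowest abundance of the table, 8.14 TPB, and 17.1% of all pairs had more. The other 4 NF-YA loci had no more than 16.3 TPB, which is 2 times the lowest. NF-YA3 at Glyma.09G068400 had 8 transcripts listed, 4 of them at 8.14 TPB and 4 at 16.3 TPB. Glyma.15G173300, annotated as NF-YA3 or NF-YA5 by transcript, had 4 transcripts, and Glyma.17G051400, annotated as NF-YA5 or NF-YA8, had 4, all at 16.3 TPB. Glyma.13G107900, a further NF-YA3, had 1 transcript at 16.3 TPB, at position 1064.

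The authors' grading of these pairs was weak. The deposited table sorts pairs into categories from 0 to 4, of which target callers usually give 0 and 1 to sites that are the highest of their transcript. Of the 54 NF-YA pairs, 18 were in category 2, 9 in category 3 and 27 in category 4. None was in category 0 or 1, where 33.1% of all pairs of the table stood. The authors' p-value was under 0.05 for 0 of the 78 miR169 pairs, against 15.9% of all pairs. The lowest authors' p-value among NF-YA pairs was 0.514, and that of NF-YA1 ranged from 0.573 with miR169b to 0.9999 with miR169c. A weak grade in 1 pooled library does not show that these transcripts are not cleaved.

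The alignment score of the authors' deposited table, a penalty that is 0 for the closest pairing in it and reaches 4, differed between members. Over the 18 NF-YA transcripts the median score was 2 for miR169c and 3 for miR169a and for miR169b. miR169c scored lower than miR169b at 18 of 18 transcripts and lower than miR169a at 13, with equal scores at the other 5. For NF-YA1 the score was 3 with miR169c and 4 with miR169a and with miR169b.

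**Figure D5:**
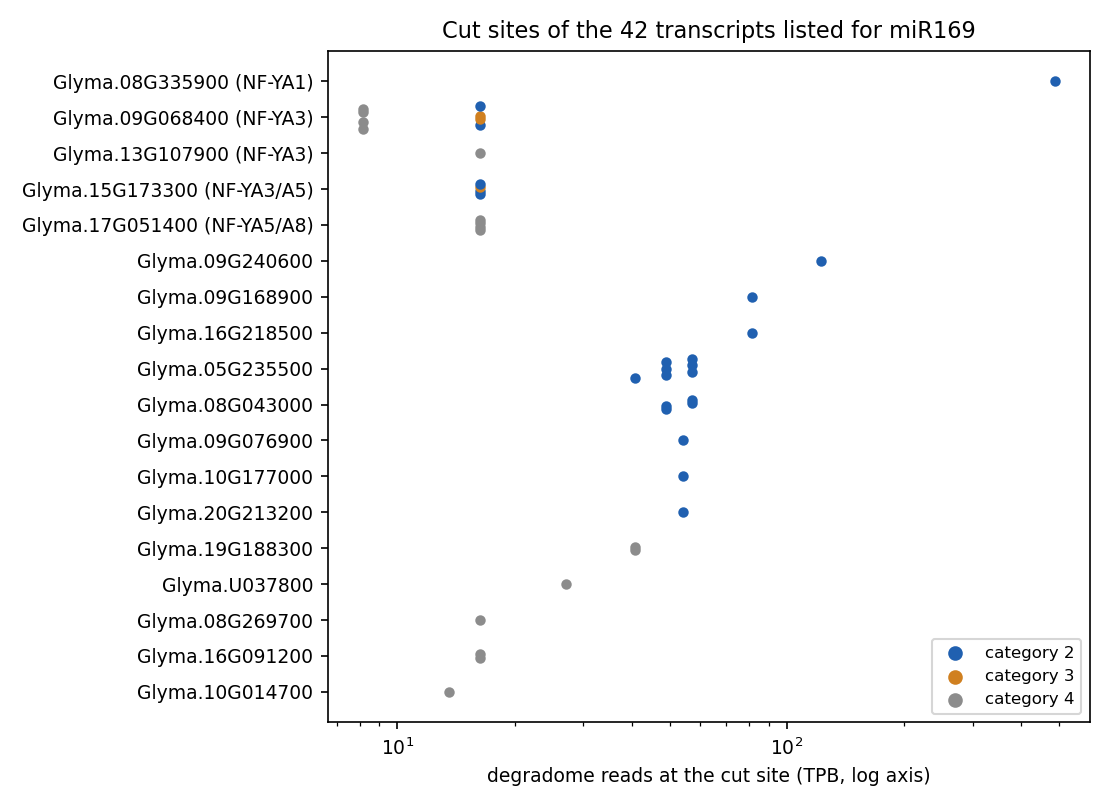
Degradome abundance at the cleavage site, in TPB on a log axis, of the 42 transcripts listed for miR169 in the authors' deposited table, grouped by gene locus (points of a locus are its transcripts) and coloured by category. NF-YA1 stands at 488 TPB, and the other NF-YA loci at 8.14 or 16.3 TPB, below most of the loci outside that class.

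The other 24 pairs fell outside the NF-YA class, and none of them was in category 0 or 1 of the authors' deposited table. miR169a was paired with 11 transcripts of 2 loci, Glyma.05G235500 and Glyma.08G043000. They were annotated as jasmonate ZIM-domain (JAZ) proteins or as TIFY domain proteins, the latter with the symbol JAZ9. JAZ proteins are known repressors of jasmonate signalling. All 11 were in category 2 with an alignment score of 4, an abundance between 40.7 and 57.0 TPB and an authors' p-value of 0.981. The opposite-arm sequence MIR169b-p3, with 2 control and 0 chilled reads, was paired with 13 transcripts of 11 loci. Among these were a pair of glutamate decarboxylase genes, whose enzyme makes γ-aminobutyrate, at 81.4 TPB and a score of 2, and VDAC1 (Glyma.09G240600.1), a channel of the outer mitochondrial membrane, at 122.1 TPB. The rest were 3 cupins at 54.3 TPB and 5 loci with 40.7 TPB or less. The authors' p-value was between 0.790 and 0.9995 for these 13 pairs of the deposited table.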

How the data were processed

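Small RNA was sequenced from 1 control and 1 chilled library of pooled leaves, and a degradome from 1 mixed library. The profile tables hold raw reads per entry, per the file headers; many are fractional, so they were taken as estimated counts that the authors had shared out before they were deposited. The deposited tables also give the GC percent of each hairpin and its folding energy. The degradome table, per the file headers, gives an abundance signal (TPB), an alignment score, a category and a p-value per pair. The sources used here do not give the aligner, callers or build. The entry with most reads was kept per distinct sequence. Reads, rounded for scaling and intervals, went through TMM scaling (edgeR 4.0.16, run under R 4.3.3), with size factors of DESeq2 1.42.0 as an alternative. Ratio intervals are exact conditional binomial intervals at 95%, intervals of shares Wilson intervals. The interval and call steps were tested on simulated data. The simulated reads were whole and independent, and changes were placed only in sequences with more reads than any higher miR169 member. Changes at low read numbers, and shared reads, were thus not covered. NF-YA pairs were found by annotation patterns. RefSeq names come from its Glycine_max_v4.0 table. All members of the family were reported, and the nearest families were the 3 with the closest summed ratio. The members and lists were chosen with earlier results of these data known. With 1 library per condition, no test was made. Alternatives covered scaling, pseudocount, minimum, entries, arms and target grading. Blank lines in the profile table are not analysed here.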

Additional observations from a re-analysis of the deposited data

How the results depend on the processing

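The family sum stayed above 0 under every alternative run. It moved beyond its counting interval to 0.24 with the same table total, 0.67 with a total without miR3522, 0.71 with unscaled reads and 0.91 over the 3′ arm alone; the first 3 shifts are those of the scalings themselves. With no minimum, the count of 5 higher members became 8 of 19 members called (7 higher and 1 lower), where 33.1% of all sequences were called. With miR169c and both miR169e counted as 1 it became 3 of 12, beside 30.5% of all sequences in the main run. It was 0 at a minimum of 100 normalised reads, where 2 members were left to test and the share of all sequences called was 21.2%. The 5 higher members met the rule under each of the 6 scalings. miR169k joined them with unscaled reads (6 of 14 members), where 33.0% of all sequences were called. Of 144 ratios of single members under 8 settings, 141 stayed within their counting interval, 3, all of miR169n, moved beyond it, and none of a called member changed sign. MIR169k-p3, which has no interval, was left out. The scalings shift log2 ratios by 0.25 at most, which the intervals of all members but miR169n span. Staying within the interval under another scaling was thus fixed in advance for these members, and is no check of them. The 54 NF-YA pairs came to 5 loci, to 0 pairs in categories 0 and 1 and to 0 at an authors' p-value under 0.05. No paired analysis was possible because each condition has 1 library. Depth limits all members under about 30 reads.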

Other observations

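The RefSeq gene table names 22 MIR169 genes in soybean. Each of the 16 hairpins has a RefSeq gene of the same chromosome and length, which is a match by those properties alone, and the chromosome 9 hairpin listed for miR169c has 2, MIR169C and MIR169W. By this match, the listed name differs from the RefSeq name at several hairpins: the chromosome 17 hairpin listed as miR169e has the length of MIR169S, the chromosome 9 hairpin listed as miR169e that of MIR169H, and the chromosome 13 hairpins listed as miR169a those of MIR169V and MIR169M. MIR169F, MIR169G, MIR169I, MIR169O and MIR169R have no such match in the profile table. In the RefSeq order, 0 other genes lie between neighbours of MIR169N, MIR169D, MIR169P and MIR169E on chromosome 15, and 1 gene lies between MIR169K and MIR169H on chromosome 9. Further runs of neighbours with 0 genes between them are MIR169H, MIR169C and MIR169W on chromosome 9, MIR169M, MIR169O and MIR169I on chromosome 13 and MIR169R, MIR169G and MIR169S on chromosome 17.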
